A study of Mus musculus with 10 samples.

Results

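The B cell identity and signalling genes examined here were a list of 28 genes, set by name and matched to the Ensembl identifiers of the count tables, and all 28 were found among the 46983 genes counted. They were described in each library and by folic acid (FA) group, separately for libraries with more and with less than 50 CPM (read counts relative to the library total, scaled by TMM) of *Ighd*. RNA came from the mammary gland of C57BL/6 mice aged 130 postnatal days, with 5 libraries from mice fed control FA (CFA, 1 mg FA/kg diet) and 5 from mice fed high FA (HFA, 5 mg FA/kg diet), 1 library per mouse. The test diets had been replaced by the same AIN93M maintenance diet in both groups 4 weeks before collection, and the mice were virgin females, with no genetic alteration named. The tissue was a thoracic fat pad taken whole, so that a library mixes epithelium, fat, vessels and any immune cells or lymphoid tissue within the pad. Skeletal muscle markers were also present in every library. The reads counted on genes ranged from 7672199 to 14829291.

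B cells recognise antigen through a surface immunoglobulin that signals by a pair of associated chains, CD79A and CD79B. Kinases such as BLK, SYK and BTK and adaptors such as BLNK carry the signal onward, while receptors such as CD22, CD72 and SIGLECG damp it. Mature naive B cells carry IgD, live on the survival factor BAFF, and gather in follicles of lymph nodes and spleen under the chemokine receptor CXCR5, and the normal mammary gland holds few of them outside lymphoid tissue.

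Of the 10 libraries, 3 stood apart and are named before any result. *Ighd*, which encodes the heavy chain of IgD (chr12:113406604-113416324, minus strand, GRCm38), was at 104.6 CPM in CFA2, 290 CPM in CFA5 and 895 CPM in HFA5. In the other 7 libraries it was at 1.58 (CFA1), 1.24 (CFA3), 1.16 (CFA4), 1.44 (HFA1), 1.64 (HFA2), 1.56 (HFA3) and 0.914 CPM (HFA4). No library lay near the limit of 50 CPM, and the same 3 libraries were above it when CPM were taken from raw totals. The split thus left 2 CFA and 1 HFA library above it and 3 CFA and 4 HFA libraries below it. As *Ighd* is itself a member, differences between both sides are given as a description, with no test.

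All 28 genes were higher in each of the 3 libraries above the split than in any of the 7 below it, against 8.44% of the 27582 genes with at least 1 count in any library. In all 28 the order among the 3 libraries was CFA2, then CFA5, then HFA5. The share of all genes in this order was not computed, so it is a description of 3 single libraries. The summed level of the 28 genes was 29.6 to 73.2 CPM in the libraries below (median 55.9), 871 CPM in CFA2, 2226 CPM in CFA5 and 6575 CPM in HFA5. They thus took 0.00243% to 0.00695% of the reads on genes below the split, and 0.103%, 0.218% and 0.720% above it. In RNA of a whole tissue, fewer cells of a type and less RNA per cell cannot be told apart.

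**Figure D1:**
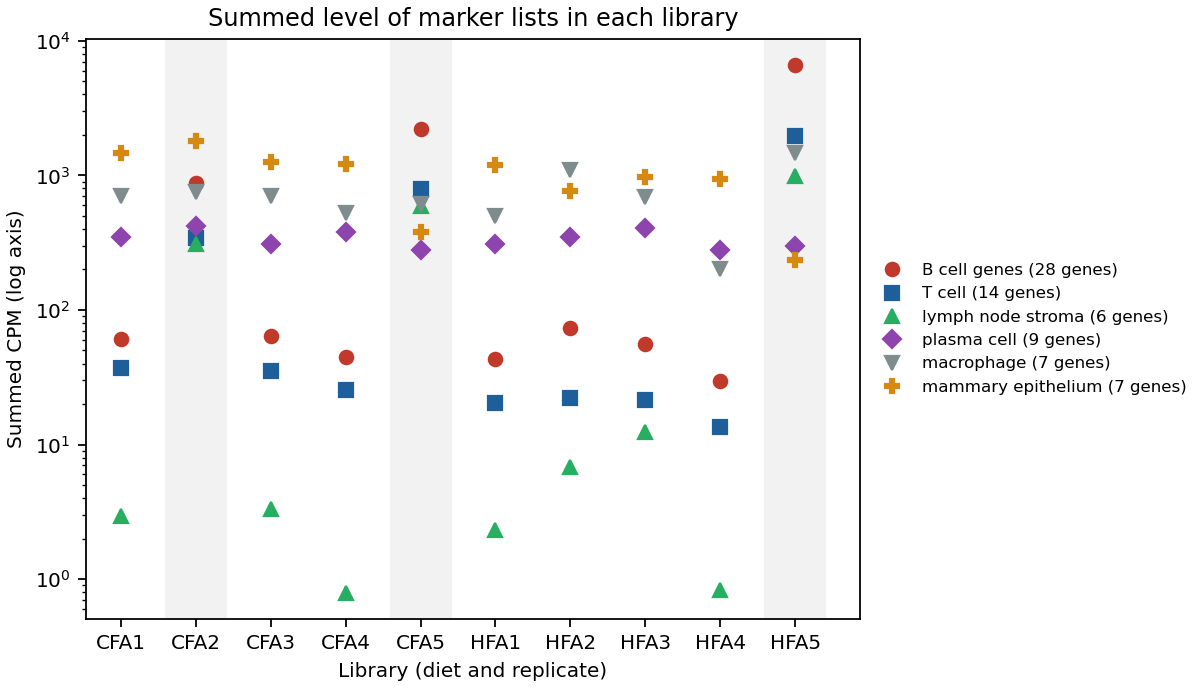
Summed CPM (log axis) of the 28 B cell genes and of 5 lists of marker genes in each of the 10 libraries, with the libraries above 50 CPM of *Ighd* shaded; each point is 1 library. The B cell genes sum to 871, 2226 and 6575 CPM in the shaded libraries and to at most 73.2 CPM in the rest, and T cell and lymph node stroma lists are high in the same libraries while plasma cell genes are not.

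RefSeq promoter windows (GRCm38.p6, 250 bases before to 50 bases after a start) matched 22 of the 28 genes. Because the members moved together, their windows were searched on both strands for 3 short motifs that factors of B cells are known to bind. The octamer ATGCAAAT, bound by the partners of *Pou2af1*, was in the windows of *Vpreb3* and *Blnk* (2 of 22), and in 1.97% of the genes of the table. GAGGAAGT, a core of sites for PU.1 and SPIB, was in those of *Cd37*, *Cd72*, *Fcrl1* and *Btla* (4 of 22), and in 3.69% of all genes. CCCNNGGG, a core bound by EBF1, was in those of *Cd22*, *Bank1* and *Spib* (3 of 22), and in 15.4% of all genes. The motifs are matches of letters and not shown to be sites. Of the windows with a match, 4 are shown, each the 150 bases before the start, 5′ to 3′ on the strand of the gene, with the match in capitals (ATTTGCAT and ACTTCCTC are these motifs read on the other strand):
Vpreb3: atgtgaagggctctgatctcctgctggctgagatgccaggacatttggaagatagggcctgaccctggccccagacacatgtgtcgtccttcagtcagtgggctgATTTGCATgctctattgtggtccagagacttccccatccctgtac
Fcrl1: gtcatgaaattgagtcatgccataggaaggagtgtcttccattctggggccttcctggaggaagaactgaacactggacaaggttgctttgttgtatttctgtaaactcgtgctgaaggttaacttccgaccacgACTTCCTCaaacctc
Cd72: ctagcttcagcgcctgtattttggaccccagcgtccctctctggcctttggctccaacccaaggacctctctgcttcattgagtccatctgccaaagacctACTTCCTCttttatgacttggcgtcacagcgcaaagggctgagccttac
Btla: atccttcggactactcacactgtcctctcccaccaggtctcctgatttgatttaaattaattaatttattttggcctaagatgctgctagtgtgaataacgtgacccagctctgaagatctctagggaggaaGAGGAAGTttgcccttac

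The windows lie at chr10:75948150-75948299 (plus strand) for *Vpreb3*, chr3:87376237-87376386 (plus) for *Fcrl1*, chr4:43454627-43454776 (minus) for *Cd72* and chr16:45224187-45224336 (plus) for *Btla*. The first base of the match was 45 bases before the start in *Vpreb3*, 15 in *Fcrl1*, 49 in *Cd72* and 18 in *Btla*. In GENCODE M21, annotated exons cover 0 bases of the first pair of windows, 2 bases of that of *Cd72* and 22 bases of that of *Btla*, so that the match of *Btla* lies in a first exon by that annotation. The windows of *Blnk* and *Cd37* overlap annotated exons by 150 and 65 bases and are not shown.

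Per length of exon, the receptor complex was the most abundant part of the list. *Cd79a* (chr7:24897381-24902197, plus strand) and *Cd79b* (chr11:106311341-106314762, minus strand), the signalling chains of the receptor, were at 58.5 and 57.1 CPM in CFA2, 150.0 and 134.6 CPM in CFA5 and 433 and 444 CPM in HFA5. Below the split they ranged from 0.426 to 0.886 CPM (median 0.618) and from 0.710 to 1.52 CPM (median 1.28). The ratio of *Cd79a* to *Cd79b* counts was 1.02, 1.11 and 0.976 in the 3 libraries above, and 0.333 to 0.833 below on a few counts each. On CPM per kilobase of exon, *Ighd* led the list in all 3 libraries above, with 55.1 in CFA2, 153 in CFA5 and 471 in HFA5. *Cd79a* and *Cd79b* followed with 40.1 and 39.9 in CFA2 and 297 and 310 in HFA5 on the same scale, and *Bach2*, *Cd40* and *Vpreb3* held the last 3 places. The order of the 28 genes by this measure was similar between the 3 libraries (Spearman rho 0.977 to 0.986 across genes, a description, since libraries share the same gene lengths).

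*Ighm*, the heavy chain of IgM and no member, was at 232, 585 and 1502 CPM in CFA2, CFA5 and HFA5, and its ratio to *Ighd* was 2.21, 2.02 and 1.68 there. Below the split *Ighm* was at 34.3 to 95.0 CPM, 21.7 to 76.9 times *Ighd*. The libraries without much *Ighd* thus still held reads of *Ighm*.

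The surface identity genes behaved alike above the split. *Ms4a1*, which encodes CD20, was at 58.0, 139 and 473 CPM in CFA2, CFA5 and HFA5, against 0.275 to 1.04 CPM below (median 0.520). *Fcer2a*, the low-affinity IgE receptor CD23 of follicular B cells, was at 38.9, 103 and 255 CPM against 0.137 to 0.993 CPM. *Cr2*, the complement receptor CD21 of B cells and follicular dendritic cells, was at 35.6, 119 and 329 CPM against 0.145 to 1.28 CPM. The mean of the 3 libraries above was 416, 359 and 243 times the mean of the 7 below for these 3 genes. *Fcmr*, the Fc receptor for IgM, gave the highest such ratio of the list, 436, with 33.0, 93.7 and 251 CPM above and at most 0.443 CPM below. *Cd22*, an inhibitory receptor for sialic acids, was at 41.5, 118 and 321 CPM and *Btla*, an inhibitory receptor of lymphocytes, at 38.4, 92.1 and 310 CPM, with maxima below the split of 1.30 and 1.84 CPM. The Fc receptor-like genes *Fcrl1* (13.6, 40.6 and 120 CPM) and *Fcrla* (15.2, 35.6 and 114 CPM) followed the same order, and neither passed 0.710 CPM in a library below.

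**Figure D2:**
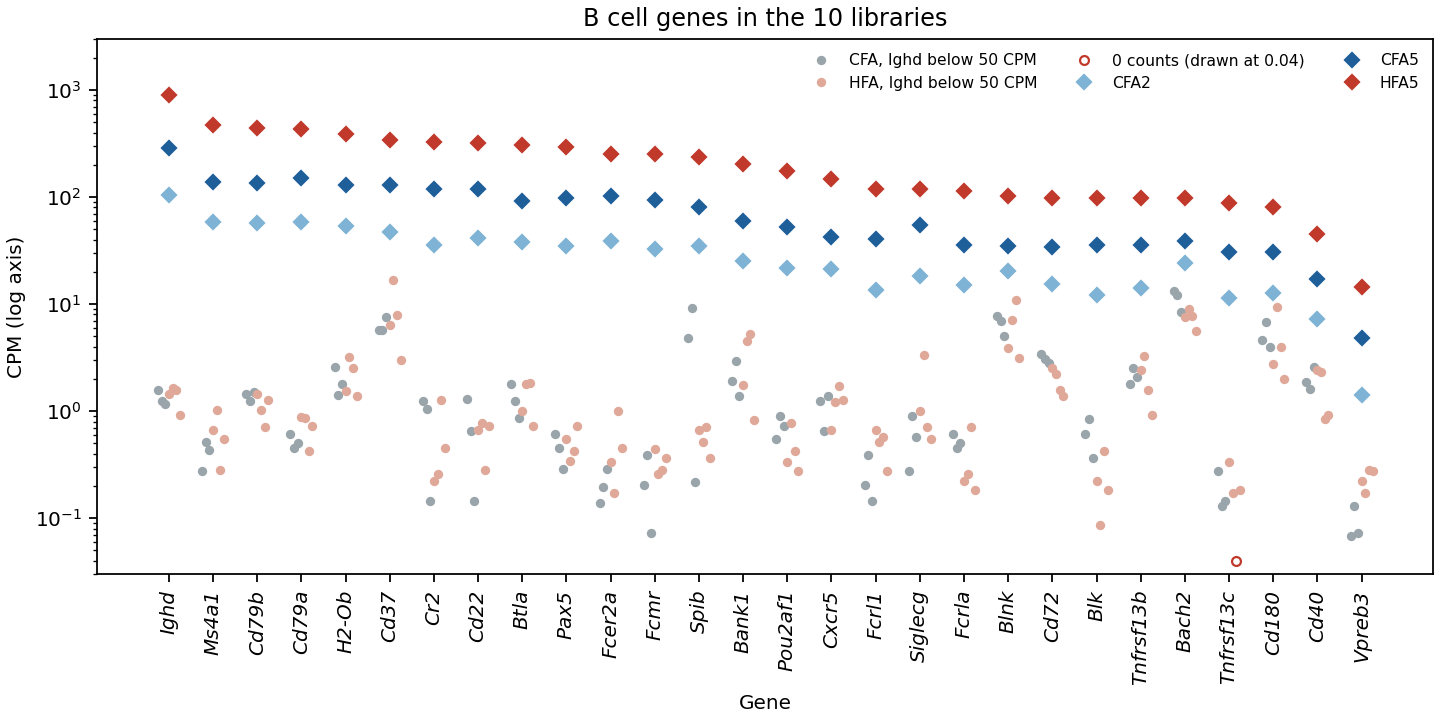
CPM (log axis) of each of the 28 genes in the 10 libraries, ordered by the level in HFA5; diamonds are the 3 libraries above 50 CPM of *Ighd* and small dots the 7 below, with 1 library of 0 counts drawn as an open circle. In every gene the 3 diamonds lie above all dots in the order CFA2, CFA5, HFA5, and the gap is narrowest for *Bach2*, *Blnk*, *Cd180* and *Cd37*.

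Among the signalling genes, *Blk*, a Src family kinase, was at 12.3, 35.7 and 98.8 CPM above the split and at 0.0863 to 0.845 CPM below it. *Bank1*, a scaffold of receptor signalling, was at 25.2, 60.3 and 203 CPM against 0.823 to 5.25 CPM. *Blnk*, the adaptor that joins SYK to its targets, was only 8.24 times as high above as below, with 20.5, 34.9 and 102 CPM above. Its values below were 7.69, 7.02 and 4.99 CPM in CFA1, CFA3 and CFA4 and 3.87, 7.07, 10.9 and 3.11 CPM in HFA1 to HFA4. *Blnk* was thus readily detected in all 10 libraries, and *Blk* was near the limit of detection in 7.

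The transcription factors showed both kinds. *Pax5*, which maintains B cell identity, was at 34.6, 98.0 and 291 CPM above the split and 0.289 to 0.731 CPM below. *Pou2af1*, the coactivator of octamer-binding factors, was at 21.7, 52.3 and 174 CPM above and 0.274 to 0.910 CPM below. *Bach2* (chr4:32238804-32586108, plus strand), a repressor that holds back plasma cell differentiation and acts in T cells as well, gave the lowest ratio of the list, 5.88, with 24.4, 38.5 and 97.4 CPM above. *Spib* (chr7:44525993-44532071, minus strand), an Ets factor of B cells, was at 35.1, 80.2 and 238 CPM above. Below the split *Spib* was at 4.81 CPM in CFA1 and 9.23 CPM in CFA3, and at 0.217 to 0.710 CPM in the other 5 libraries.

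*Tnfrsf13c*, the BAFF receptor, was at 11.4, 30.7 and 88.0 CPM in CFA2, CFA5 and HFA5 and at no more than 0.332 CPM below. In HFA3 it had 0 counts, which allows a level of up to 0.426 CPM (3 counts, counting error only), and it was the only member with 0 counts in any library. *Tnfrsf13b*, which encodes TACI, was at 14.04, 35.6 and 98.8 CPM above and 0.914 to 3.28 CPM below. *Cxcr5* was at 21.5, 42.4 and 147 CPM against 0.650 to 1.70 CPM, and *Cd40*, the receptor for T cell help, at 7.24, 17.2 and 45.4 CPM against 0.851 to 2.60 CPM. *Cd180*, a Toll-like receptor homologue also found on macrophages and dendritic cells, was 8.75 times as high above (12.8, 30.9 and 81.6 CPM) as below (2.01 to 9.32 CPM). *Vpreb3*, related to the surrogate light chain of precursor B cells, had the fewest counts, at 1.43, 4.85 and 14.3 CPM above, with 1 to 3 counts in each library below. *H2-Ob*, a chain of the class II modulator H2-O, was at 54.1, 130 and 391 CPM against 1.37 to 3.19 CPM.

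Over the list, 15 genes were more than 100 times as high above the split as below it, and 4 (*Bach2*, *Blnk*, *Cd180* and *Cd40*) less than 20 times. In the 7 libraries below, 15 of the 28 genes had a median under 1 CPM. These 2 groups of 15 were not the same: *Ighd*, *Cd79b* and *Btla* had ratios over 100 with medians of 1.44, 1.28 and 1.24 CPM below, and *Vpreb3*, *Spib* and *Siglecg* had medians under 1 CPM with ratios of 39.3, 49.98 and 60.3.

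The step from CFA2 to HFA5 was of similar size for most members. The ratio of HFA5 to CFA2 had a median of 7.55 over the 28 genes, from 4.00 (*Bach2*) to 10.04 (*Vpreb3*), and that of CFA5 to CFA2 a median of 2.47, from 1.58 (*Bach2*) to 3.40 (*Vpreb3*). When the mean of the libraries below was first subtracted, the median of HFA5 to CFA2 was 7.97, from 5.78 (*Bach2*) to 11.3 (*Vpreb3*), and 26 of the 28 genes lay within 20% of it. *Blnk* moved from 4.99 to 6.80 and *Cd180* from 6.36 to 9.53 by this step. These are single libraries, so the ratios carry no replicate error.

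Marker genes of T cells moved with the members. All 14 T cell genes were higher in each library above than in any below, and their sum was 13.5 to 36.7 CPM below, 343 in CFA2, 798 in CFA5 and 1980 CPM in HFA5. Their ratio of HFA5 to CFA2 had a median of 5.58 (4.803 to 7.16), and all 14 lay under the median of the B cell genes, 18 of which lay above the highest T cell gene. The summed B cell genes were 2.54, 2.79 and 3.32 times the summed T cell genes in CFA2, CFA5 and HFA5, and 1.65 to 3.33 times in the libraries below, so that the 3 ratios lay within the range below. Below the split *Bach2*, *Cd37*, *Blnk* and *Cd180* had the highest means of the list (9.08, 7.61, 6.38 and 4.77 CPM). *Bach2*, *Cd37* and *Cd180* are not confined to B cells, so the ratios below do not give a proportion of B to T cells. Of 6 genes of lymph node stroma, 4 were higher in each library above, among them *Glycam1*, a mucin of high endothelial venules (275, 519 and 733 CPM against 0 to 1.22 CPM), and *Cxcl13*, the ligand of CXCR5 (27.1, 65.4 and 241 CPM against 0 to 10.4 CPM). *Ccl21a*, of which near copies exist, was at 0 in all 10 libraries. The part of T cell and stromal RNA in the levels of the B cell genes was not tested.

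**Figure D3:**
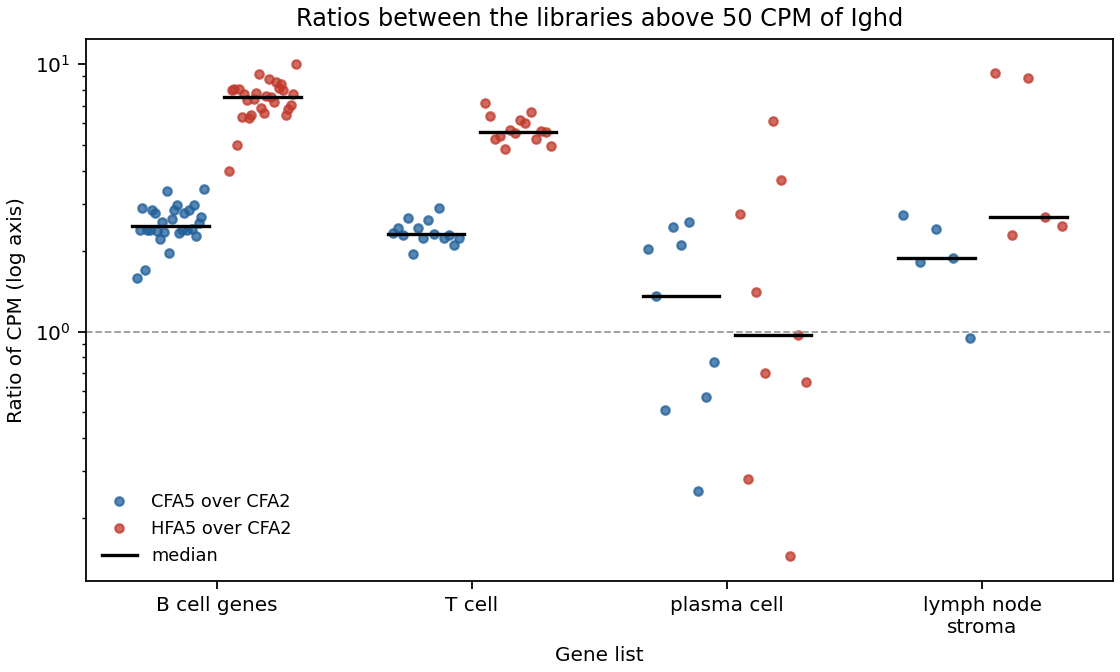
Ratio of CPM (log axis) of CFA5 to CFA2 (blue) and of HFA5 to CFA2 (red) for each B cell gene and each gene of 3 marker lists, with the median as a bar; *Ccl21a* is left out because it had no counts. The B cell genes lie at a median of 7.55 for HFA5 to CFA2 and the T cell genes at 5.58, while plasma cell genes spread on both sides of 1.

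Plasma cell genes did not follow this pattern. Their sum was 280 to 405 CPM below the split and 423, 280 and 297 CPM in CFA2, CFA5 and HFA5, and 1 of the 9, *Mzb1*, was higher in every library above (5.92, 12.5 and 36.2 CPM against 0.275 to 0.996 CPM). The one of highest mean CPM, *Xbp1*, which mammary epithelium also expresses, was at 196, 151 and 127 CPM above and 182 to 247 CPM below. None of the macrophage (7 genes), mammary epithelium (7), adipocyte (6), endothelium (5) or skeletal muscle (4) markers was higher in all 3 libraries above. The epithelial markers summed to 1812 CPM in CFA2, 378 in CFA5 and 235 CPM in HFA5, against 770 to 1476 CPM below, and the muscle markers to 538 CPM in HFA5 against 5245 CPM or more in every other library. The tissue label was thus borne out by epithelial and fat markers in all libraries, at lower epithelial levels in CFA5 and HFA5. Muscle markers were abundant too, at 13602 to 43112 CPM below the split, where the adipocyte markers summed to 13008 to 24509 CPM. Below the split the muscle sum averaged 19097 ± 6789 CPM in CFA and 38175 ± 4425 CPM in HFA (SD). The part of muscle RNA in the levels of the members was not tested.

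The genes that work with the receptor differed less between both sides. Of a list of 25 genes of the receptor pathway, 19 were higher in every library above than in any below, and the median ratio of HFA5 to CFA2 was 4.87. *Syk*, the kinase recruited by CD79A and CD79B, was at 56.6, 116 and 339 CPM against 6.49 to 55.3 CPM, and *Ptprc*, the phosphatase CD45 of all leukocytes, at 215, 451 and 1246 CPM against 14.5 to 64.6 CPM. Among 10 further transcription factors of the lineage 6 showed the same separation, and *Foxo1*, of the highest mean CPM, did not (95.8, 103 and 195 CPM against 63.1 to 111 CPM). Among 11 ligands and partners it was 6, including *H2-Oa*, the partner of *H2-Ob* (5.16, 14.5 and 46.1 CPM against 0.284 to 1.10 CPM). *Tnfsf13b*, which encodes BAFF, stayed low throughout, with 0.823 to 2.67 CPM below and 2.52, 2.84 and 5.28 CPM above.

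The comparison of diets over all libraries depended on HFA5. Of the 28 genes, 17 passed the filter on low counts. None of the 17 passed an adjusted p of 0.05 (edgeR quasi-likelihood test with Benjamini-Hochberg adjustment over all genes), and 0 had an unadjusted p under 0.05. Over all 15610 genes 0% were called, with 1149 genes (7.36%) at an unadjusted p under 0.05. The likelihood ratio test called 0 of the 17, against 0.211% of all genes, limma voom 0 against 0%, and voom with quality weights 0 against 6.64%. DESeq2 gave an adjusted p for only 8 of the 17 and called 0 of those 8, with 60 genes called in all, so it says nothing of the other 9, *Ighd* among them.

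The fitted log2 fold changes of all 17 were above 0, with a median of 0.95 beside 0.064 over all genes tested, but limma voom put 7 of them above 0 and their median at −0.014. They ranged from 0.41 for *Bach2* (standard error 0.84) to 1.24 for *Bank1* (standard error 1.55), and the adjusted p from 0.864 to 0.929 by edgeR. CFA libraries averaged 79.7 ± 126 CPM of *Ighd* and HFA libraries 180 ± 400 CPM (SD, n = 5 each), and for *Ms4a1* the means were 39.7 ± 61.0 and 95.0 ± 211 CPM. In all 28 genes the SD among HFA libraries exceeded the difference between the diet means. As HFA5 is the only HFA library above the split, this follows from that 1 library and is not 28 separate observations. The 11 genes under the filter, *Ms4a1*, *Fcer2a*, *Blk*, *Pax5*, *Cd22*, *Fcrla*, *Fcrl1*, *Pou2af1*, *Tnfrsf13c*, *Fcmr* and *Vpreb3*, had too few counts in too many libraries, and with no filter all 28 were tested, higher in HFA at a median of 0.94 and with 0 called.

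The direction turned with 1 library. Without HFA5, all 17 genes were lower in HFA at a median of −3.38, and 13 had an unadjusted p under 0.05 with 0 past the adjusted threshold. In the same fit 25.8% of the 15735 genes tested had an unadjusted p under 0.05. *Ighd* went from 1.18 to −5.88, *Cr2* from 1.08 to −5.97 and *Spib* from 0.90 to −5.57 on the log2 scale. Without CFA5 the median was 2.33, and without CFA2 it was 0.97, with all 17 genes above 0 in both cases. Leaving out libraries below the split gave medians of 0.62 to 0.69 without CFA1, CFA3 or CFA4 and of 1.33 without any 1 of HFA1 to HFA4, over 20 to 22 genes tested. Of the 10 libraries, HFA5 was the only one whose removal turned the sign of the median.

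**Figure D4:**
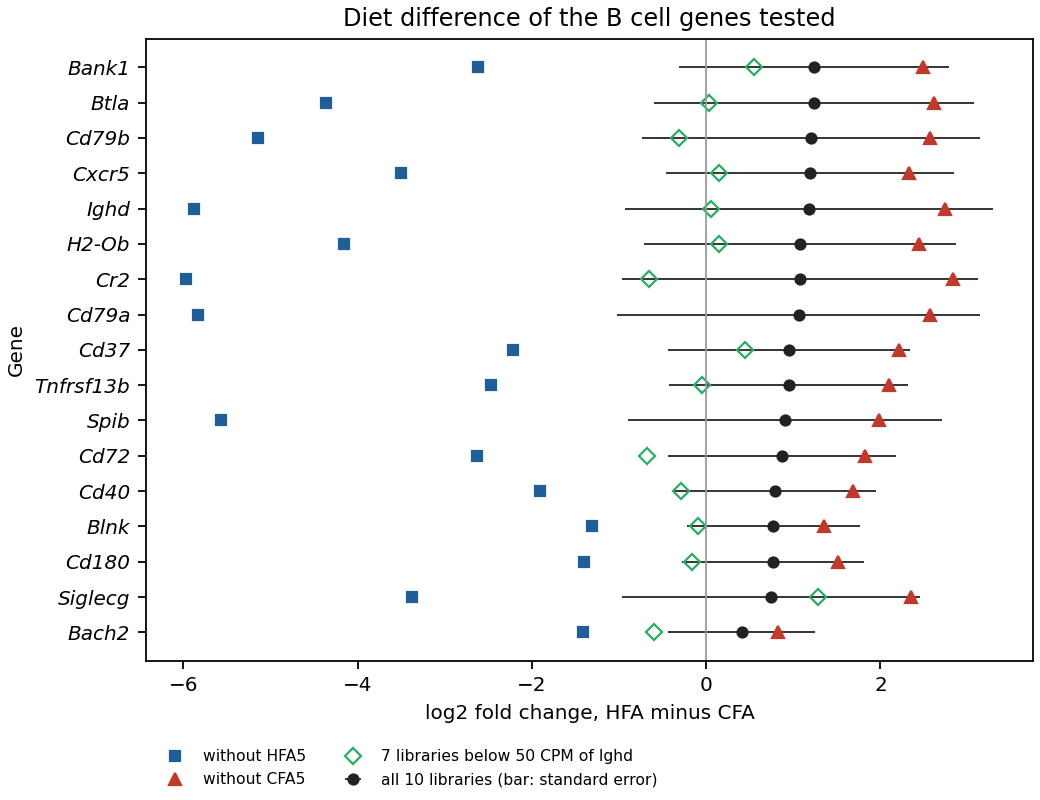
Log2 fold change of HFA over CFA for the 17 genes tested over all 10 libraries (dots, with standard errors), without HFA5 (squares), without CFA5 (triangles) and among the 7 libraries below 50 CPM of *Ighd* (open diamonds, for genes tested there). The dots lie between 0.41 and 1.24, the squares are all below 0, the triangles all above 0, and the diamonds scatter around 0.

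Among the 7 libraries below the split, 3 CFA and 4 HFA, 15 of the 28 genes passed the filter. Their log2 fold changes were above 0 in 7 and below 0 in 8, and the median was −0.053 beside 0.0084 over all genes. None was called at an adjusted p of 0.05 by the edgeR quasi-likelihood test, against 2.98% of the 15759 genes tested (469 genes, 185 higher and 284 lower in HFA). An unadjusted p under 0.05 was found for 2 of the 15, against 23.4% of all genes. With 15 genes, 2 is too small a count to be read as a difference from that share. Without single libraries the share ran from 13.7% to 25.5%, and the members' count from 0 to 3. The likelihood ratio test called 0 of the 15 too, against 10.1% of all genes. The number of all genes called by the quasi-likelihood test itself moved from 0 to 1236 as single libraries were left out. It was 1 without CFA1, 0 without CFA3 or HFA1, 2 without HFA2, 7 without HFA3, 6 without HFA4 and 1236 without CFA4.

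*Cd72* (chr4:43446462-43454628, minus strand), an inhibitory receptor of B cells, was 1 of these 2 genes, both lower in HFA. It was at 3.43, 3.06 and 2.82 CPM in CFA1, CFA3 and CFA4 and at 2.55, 2.24, 1.56 and 1.37 CPM in HFA1 to HFA4, on 11 to 50 counts. The diets did not overlap, a description only, since the share of all genes without overlap was not computed. The log2 fold change was −0.68 with a standard error of 0.29 (adjusted p = 0.202 by edgeR), and the adjusted p ranged from 0.167 to 0.481 over the alternatives. *Sema4d*, which encodes a ligand of CD72, was at 31.4 to 38.7 CPM in the 3 CFA and 37.3 to 50.8 CPM in the 4 HFA libraries (log2 fold change 0.36, edgeR adjusted p = 0.165).

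*Bach2*, the other gene, was at 13.3, 12.1 and 8.38 CPM in the CFA libraries below the split and at 7.53, 9.06, 7.66 and 5.58 CPM in the HFA libraries. The groups overlapped through CFA4 and HFA2. The log2 fold change was −0.59 with a standard error of 0.22 (adjusted p = 0.160 by edgeR), and the adjusted p ranged from 0.0783 to 0.456 over the alternatives. The diets overlapped in all members but *Cd72* and *Vpreb3*, the latter on 1 to 3 counts a library. The share of all genes without overlap was not computed, so this is a description only.

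*Spib* was the member that depended most on 1 CFA library. It was under the filter among the 7 libraries, with 70 and 142 counts in CFA1 and CFA3, 3 in CFA4 and 4 to 6 in the HFA libraries. Without CFA4 it was tested, and it was lower in HFA at −3.65 on the log2 scale (standard error 0.40, adjusted p = 0.00519 by edgeR), the only call of a member in any alternative run. In that run 1 of the 17 members tested was called, against 7.71% of the 16029 genes tested. The run leaves out the CFA library in which *Spib* was lowest, and it was chosen after the data were seen. CFA4, with 0.217 CPM, lay under every HFA library below the split, so the 3 CFA libraries differed among themselves. Epithelial markers summed to 1476 and 1264 CPM in CFA1 and CFA3 and to 1209 CPM in CFA4, and T cell genes to 36.7, 35.2 and 25.6 CPM, and their part in the level of *Spib* was not tested.

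*Cd37*, a tetraspanin of B cells and other leukocytes, was at 5.70, 5.79 and 7.51 CPM in the CFA and 6.42, 16.9, 7.95 and 3.02 CPM in the HFA libraries below the split. *Cd180* was at 4.60, 6.76 and 3.97 CPM in CFA and 2.77, 9.32, 3.97 and 2.01 CPM in HFA. *Siglecg*, an inhibitory receptor of B cells, was at 0.275, 0.910 and 0.578 CPM in CFA and 0.996, 3.36, 0.710 and 0.549 CPM in HFA. All 3 were highest in HFA2, and their diets overlapped. The macrophage markers summed to 1092 CPM in HFA2 and 201 CPM in HFA4, the highest and lowest of the 7 libraries, in which *Cd37* and *Cd180* were also highest and lowest, and the part of macrophage RNA in these genes was not tested.

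**Figure D5:**
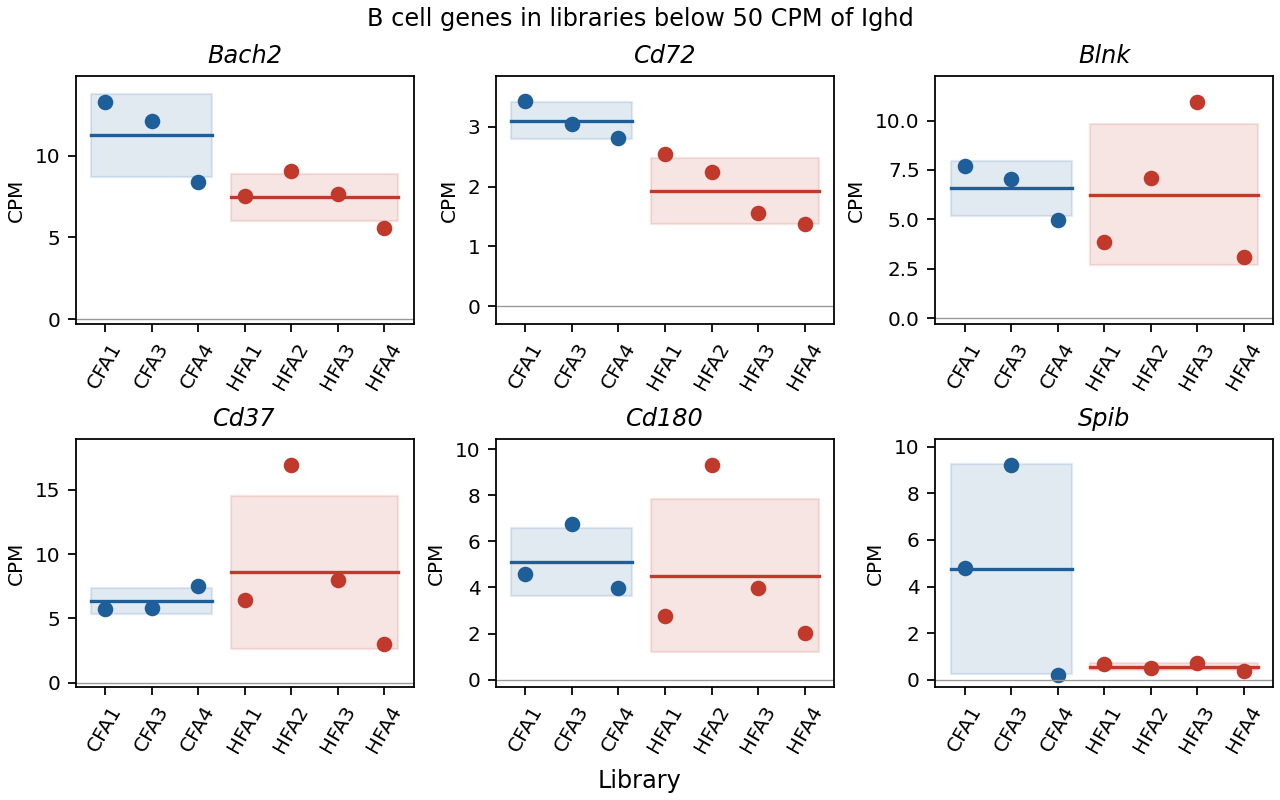
CPM of 6 B cell genes in the 7 libraries below 50 CPM of *Ighd*, with CFA in blue and HFA in red; lines are diet means and shaded bands 1 SD. *Cd72* has a lower mean in HFA (edgeR adjusted p = 0.202), *Spib* is raised in CFA1 and CFA3 but not in CFA4, and *Cd37* and *Cd180* are highest in HFA2.

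Of the receptor pathway, 24 of 25 genes were tested in both comparisons and 0 were called. Over all libraries the log2 fold change was above 0 for 20 and below 0 for 4, and the lowest p was that of *Rasgrp3*, an exchange factor for Ras (log2 fold change 0.58, edgeR adjusted p = 0.726). Among the 7 libraries 10 were higher and 14 lower, and *Dapp1*, an adaptor at the membrane, had the lowest p (log2 fold change −0.71, edgeR adjusted p = 0.0562). Of the 10 transcription factors, *Bcl6*, a repressor of germinal centre B cells that other tissues also express, was higher in HFA among the 7 libraries (log2 fold change 0.77, edgeR adjusted p = 0.0428) and not called over all libraries (0.55, adjusted p = 0.684). *Tcf7*, the T cell gene of highest mean CPM, was lower there (−1.48, adjusted p = 0.0430 by edgeR), as were 4 of 7 epithelial markers (*Krt5*, *Krt14*, *Epcam* and *Cdh1*), while over all libraries none of these was called, and without CFA3 or HFA1 the 7 libraries gave 0 calls. *Tnfsf13*, which encodes the TACI ligand APRIL, and the plasma cell gene *Igha* had the lowest p of their lists over all libraries (log2 fold change −0.86 and −1.68), with adjusted p of 0.648 and 0.582 by edgeR.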

How the data were processed

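Counts per gene were deposited for 10 libraries, as whole numbers with no header and no normalization. Per the labels and the study's methods, the authors aligned paired reads of TruSeq v2 libraries to GRCm38 (mm10) with TopHat2 2.0.14 and Bowtie2 2.2.5 and counted them on Ensembl genes with HTSeq 0.6.1, leaving out reads with more than 1 alignment (28.8% to 33.9% of the counted lines). The strand setting of the counting is not given in the sources used here, so 7 members that share an exon with another gene (*Pax5*, *Cxcr5*, *Cd22*, *Cd37*, *Cd72*, *Cd180* and *Bach2*) are uncertain to that extent. Symbols, positions and exon lengths were taken from GENCODE M21 for 46488 of the 46983 genes. Lines that name no gene were kept out of all totals.

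CPM were scaled by TMM. Diets were compared, HFA minus CFA, in R 4.3.3 with edgeR 4.0.16 (filterByExpr, TMM, quasi-likelihood test, Benjamini-Hochberg adjustment over all genes tested, threshold 0.05), without covariates, since the cage that the study's model held is not in the labels. The same fit was made among the 7 libraries below 50 CPM of *Ighd*. The fit was tested on simulated data. The alternatives covered scaling (RLE, upper-quartile), filters (none, or over 1 CPM in 5 libraries), the likelihood ratio test, DESeq2 1.42.0, limma 3.58.1 voom without and with quality weights, terms from the sample titles, and leaving out each library; those without a filter or without single libraries among the 7, and the subtraction of the level below the split, were chosen after seeing the data. The labels do not say which mice shared a litter or cage. The paper measured food intake by cage and held cage in its model. Here p-values measure the spread between mice taken as independent, so any effect of a shared cage was not separated. No pair of libraries was a copy (highest correlation 0.985 over 45 pairs). Intervals and floors cover counting error only.

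All members are named, by role, and of the other lists the gene of lowest p, the most abundant gene and genes past the threshold, with *Syk*, *Ptprc*, *H2-Oa*, *Tnfsf13b*, *Sema4d*, *Mzb1* and *Glycam1* added by their role or after their values were seen. The members and lists were chosen with earlier results of these data known.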

Additional observations from a re-analysis of the deposited data

Results flagged for a closer look

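In all 28 genes, the gap between HFA5 and the nearest of the other 4 HFA libraries, over the whole range, was above Dixon's 95% value. HFA5 is the only HFA library above the split, which *Ighd* itself set, so these values describe that split and test nothing further. The CPM of HFA5 were *Ighd* 895, *Ms4a1* 473, *Cd79b* 444, *Cd79a* 433, *H2-Ob* 391, *Cd37* 343, *Cr2* 329, *Cd22* 321, *Btla* 310, *Pax5* 291, *Fcer2a* 255, *Fcmr* 251, *Spib* 238 and *Bank1* 203. For the other 14 genes they were *Pou2af1* 174, *Cxcr5* 147, *Fcrl1* 120, *Siglecg* 118, *Fcrla* 114, *Blnk* 102, *Cd72* 98.9, *Blk* 98.8, *Tnfrsf13b* 98.8, *Bach2* 97.4, *Tnfrsf13c* 88.0, *Cd180* 81.6, *Cd40* 45.4 and *Vpreb3* 14.3. These 28 values come from 1 library and are not separate findings. Its T cell and lymph node stroma markers were also the highest of all libraries, and their part was not tested.

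The other 3 values stood apart in the same way. *Vpreb3* was at 4.85 CPM in CFA5 among the 5 CFA libraries. Among the 4 HFA libraries below 50 CPM of *Ighd*, *Siglecg* was at 3.36 CPM in HFA2 and *Fcrla* at 0.710 CPM in HFA3, the latter on 5 counts. In all, 31 values were marked in 84 groups, and 28 of them were the HFA5 values that describe the split. Chance marks about 1 in 20 groups when groups are independent. These groups share libraries and genes that move together, so no excess over chance is read from the total.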

How the results depend on the processing

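No member with an adjusted p was called over all libraries under any of the 20 alternatives (DESeq2 gave none for 9 of 17), and none of RLE or upper-quartile scaling, the filters, the likelihood ratio test or DESeq2 turned a member's direction. The median log2 fold change of the members was −0.014 by limma voom, −0.68 by voom with quality weights, −0.19 with a term for the second digit of the title and −0.37 with its last 3 digits as a replicate block, and it ranged from −3.38 (without HFA5) to 2.33 (without CFA5) when single libraries were left out. Genes called over all libraries numbered 60 by DESeq2, 33 by the likelihood ratio test and 1037 by voom with quality weights, against 0. Without single libraries they numbered 0 to 6 (6 without HFA5). Voom with quality weights called 1 of 24 receptor pathway genes, against 6.64% of all genes. The samples share only title digits (correlations of the pairs' deviations −0.316 to 0.42 over 4 pairs), so the replicate block is given here alone. The cause of these changes was not tested.

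Log2 fold changes that turned to lower in HFA were, by limma voom, *Cd79a* −0.0027, *Cd79b* −0.35, *Cr2* −0.60, *Ighd* −0.16, *Cd72* −0.35, *Spib* −1.51, *Tnfrsf13b* −0.014, *Btla* −0.064, *Cd40* −0.11 and *Bach2* −0.19. With quality weights they were *Cd79a* −0.64, *Cd79b* −1.12, *Cr2* −1.76, *Cxcr5* −0.68, *Ighd* −0.93, *Cd37* −0.15, *Cd72* −0.95, *Blnk* −0.55, *Bank1* −0.28, *Spib* −2.78, *Tnfrsf13b* −0.43, *Cd180* −0.61, *Btla* −0.85, *H2-Ob* −0.73, *Cd40* −0.47 and *Bach2* −0.75. With the digit term they were *Cd79a* −1.08, *Cd79b* −0.84, *Cr2* −0.89, *Cxcr5* −0.19, *Ighd* −1.13, *Spib* −0.96, *Btla* −0.43, *H2-Ob* −0.55 and *Siglecg* −0.20. With the replicate block they were *Cd79a* −0.44, *Cd79b* −0.70, *Cr2* −1.45, *Cxcr5* −0.049, *Ighd* −0.72, *Cd37* −0.030, *Cd72* −0.75, *Blnk* −0.15, *Bank1* −0.15, *Spib* −2.87, *Tnfrsf13b* −0.37, *Cd180* −0.17, *Btla* −0.59, *H2-Ob* −0.36, *Cd40* −0.32 and *Bach2* −0.50. Leaving out single libraries gave ranges of *Cd79a* −5.84 to 2.57, *Cd79b* −5.14 to 2.58, *Cr2* −5.97 to 2.83, *Cxcr5* −3.51 to 2.33, *Ighd* −5.88 to 2.75, *Cd37* −2.21 to 2.21, *Cd72* −2.63 to 1.82, *Blnk* −1.31 to 1.36, *Bank1* −2.62 to 2.49, *Spib* −5.57 to 1.99, *Tnfrsf13b* −2.47 to 2.10, *Cd180* −1.41 to 1.52, *Btla* −4.36 to 2.61, *H2-Ob* −4.16 to 2.44, *Cd40* −1.91 to 1.68, *Siglecg* −3.38 to 2.35 and *Bach2* −1.41 to 0.82, each lowest without HFA5 and highest without CFA5.

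Among the 7 libraries below 50 CPM of *Ighd*, genes called were 469, against 1589 by the likelihood ratio test, 827 with no filter and 0 to 1236 without single libraries. Receptor pathway genes called were 2 of 24 by the likelihood ratio test, against 10.1% of all genes. They were 1 of 25 with no filter, against 3.17%, and 0 to 3 of 24 without single libraries, against 0% to 7.71%. The members called numbered 0 to 1, and the members' median was −0.22 to 0.13. With 3 CFA libraries and 0 to 4 counts a library for *Tnfrsf13c*, small differences were not detectable at this depth.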
